A study of Mus musculus with 4 samples.

Results

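The transcription factor p53 and 9 genes known as its stress targets were followed in primary mouse chondrocytes, the cells that build and maintain cartilage. The 10 genes, taken as a list by symbol, were Trp53, Mdm2, Ccng1, Phlda3, Trp53inp1, Sesn1, Sesn2, Aen, Zmat3 and Gadd45a. They were found through the RefSeq transcripts named on the array and made up 10 of the 37042 genes or unnamed transcripts measured, with 12 probes. RNA was hybridised to 4 one-colour arrays, each group being 1 array. The cells came from 6-day-old C57BL/6J mice. The control group was Rela fl/fl, in which the gene of the NF-κB subunit Rela is flanked by loxP sites but carries no Cre, and the second group was Prrx1-Cre; Rela fl/fl, labelled cKO, from littermates. Prrx1-Cre is active in limb bud mesenchyme, so deletion depends on that promoter having been active in the cells that were cultured. The study describes PCR checks of the floxed allele in chondrocytes of this genotype. It also reports that RT-PCR on cDNA of various tissues of these mice showed the tissue-specific deletion of Rela. Neither check was analysed here. Chondrocytes of each genotype were grown for 3 days without TNF or with 10 ng/mL TNF, an inflammatory cytokine that activates NF-κB. Whether animals were pooled is not given in the sources used here. The study asked which genes Rela controls in chondrocytes exposed to TNF.

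p53 is made continuously and is kept low by the ubiquitin ligase Mdm2, which marks it for destruction. DNA damage and other stresses block that destruction, and the stabilised protein then switches on genes that halt the cell cycle, repair DNA, restrain growth signalling or start cell death. Because this control acts on the protein, the level of Trp53 mRNA is not a measure of p53 activity, which is why its targets are read beside it. NF-κB, the pathway that Rela serves, is known for raising survival genes when TNF is present.

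Each value below is a signal on a linear scale relative to the 75th percentile of all transcript spots on its own array, so that a signal of 1 lies at that percentile, and a difference is in log2 units between 2 arrays. Signals of one gene can be compared between arrays, but not between genes, because probes differ in brightness. With 1 array for each group no group has a replicate that would show its spread between cultures. A fit of genotype label and TNF as additive effects would take any interaction of these as its only error, and it was not made, so no p-value is given. The number of arrays limits the precision. The error used here is the spread between repeated spots of one probe within an array. For a difference between 2 single spots it had an SD of 0.14 log2 units, estimated from those of the 399 probes printed 10 times whose spots were all well above background and free of outliers, 173 to 215 on each array. A difference is called past the limit where it is at least 2 such spreads, 0.28 log2 units or 1.21-fold, which is a statement about technical error only. In bulk RNA of this kind, fewer cells of one type and less RNA per cell cannot be told apart.

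The targeted gene did not follow the label. The Rela signal was 28.3 in Rela fl/fl chondrocytes and 33.9 on the array labelled cKO without TNF, and 34.7 and 40.2 with TNF. The genotype differences were 0.26 and 0.21 log2 units towards more signal on the arrays labelled cKO, below the limit of 0.28. Where the probe lies relative to the deleted exons is not given in the sources used here, and a probe outside them would check nothing. The second group is therefore called by its label throughout. Xist, the RNA that coats the inactive X chromosome in female cells, had a signal of 0.715 and 0.752 on the Rela fl/fl arrays and did not stand well above background where the label was cKO. The Y-linked Ddx3y and Eif2s3y were well above background on all 4 arrays, Ddx3y at 1.3 and 1.3 in Rela fl/fl and 3.66 and 4.23 on the arrays labelled cKO, and Eif2s3y at 1.77 and 1.84 against 6.23 and 6.53. Whether these probes also read the X-linked relatives of those genes was not tested. A difference in sex makeup cannot be told apart from the genotype label. All 8 chondrocyte markers were well above background on every array, with a summed signal between 1260 and 1550 that was lower on both arrays labelled cKO. Of these markers, 5 were lower past the limit there without TNF and 4 with TNF. Of 6 macrophage and leukocyte markers 5 were on the array, and 4 of these (Adgre1, Csf1r, Lyz2 and Cd14) were well above background on every array while Ptprc was on none. Their summed signal was 3.76 to 4.22. Between the genotype labels Lyz2 differed by -2.11 without TNF and -0.94 with TNF and Adgre1 by 2.87 and -0.50, and each had its spot in a disturbed patch on 1 array.

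Short promoter stretches that hold letters matching the p53 recognition element are shown first, since they carry the sequence feature by which p53 is known to find its targets. The windows were the 300 bases from 250 before to 50 after each annotated start in RefSeq on the mouse build GRCm38.p6, and 8 of the 10 genes had one or more (not Zmat3 and Trp53inp1). The search was for the p53 element by its published consensus, which is a pair of half-sites of 10 bases with 0 to 13 bases between them, with at most 2 mismatches in all and the central C and G of each half-site kept. It reads the same on both strands. Of all 32851 windows, 4.09% held such an element, and 3 of the 8 genes did. Capitals mark the half-sites and lower case marks the bases between them.
Ccng1: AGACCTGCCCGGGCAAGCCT
Gadd45a: GGACCTGGTTggctgaGGGCTAGCCC
Sesn1: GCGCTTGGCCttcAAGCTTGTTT
Cdkn1a: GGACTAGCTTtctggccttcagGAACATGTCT
The Ccng1 stretch lies at chr11:40755462-40755481 on the minus strand, with bases -195 to -176 counted from the start, with 1 mismatch, a closeness found in 0.627% of windows. The Gadd45a stretch lies at chr6:67037438-67037463 on the minus strand, with bases -56 to -31, with 2 mismatches. The Sesn1 stretch lies at chr10:41887253-41887275 on the plus strand, with bases -186 to -164 from one of its 2 annotated starts, with 2 mismatches. Cdkn1a, which is not on the list but encodes p21, the best known arrest target of p53, is shown for reference: chr17:29090906-29090937 on the plus strand, with 0 mismatches. A match of letters is a description of the window and not a site that was shown to be used, and the absence of one says only that these letters are not in this window.

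A half-site with no mismatch was found in 8.36% of all windows and for 6 of the 8 genes, of which Trp53, Mdm2 and Aen had no full element. The window of Trp53 also held the only NF-κB motif found in the windows of the 8 genes, in 1 of 10 windows, against 8.46% of all windows, searched in both orientations. It is shown because Rela, the gene targeted by the design, belongs to the NF-κB pathway, with the motif in capitals.
Trp53: ggattGGGACTTTCCcctcc
The stretch lies at chr11:69580349-69580368 on the plus strand and spans the annotated start.

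All 12 probes of the 10 genes were well above background on all 4 arrays, and none had a spot called an outlier by the scanner software. Not one of the 10 genes was past 2-fold in any comparison, and none was past 1.5-fold. The background is the share of all genes past the same fold. For TNF in Rela fl/fl it was 6.64% at 2-fold and 10.8% at 1.5-fold, and for TNF on the arrays labelled cKO it was 5.2% and 10.9%. For the genotype label it was 7.67% and 13.6% without TNF, and 4.36% and 10.2% with TNF. Of the 13353 named genes well above background on all 4 arrays, as the 10 genes were, a smaller share was past either fold. In the same order of comparisons 254, 157, 310 and 244 of these were past 2-fold, and 673, 470, 858 and 836 past 1.5-fold. A count of 0 of 10 lies close to the shares in both sets.

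**Figure D1:**
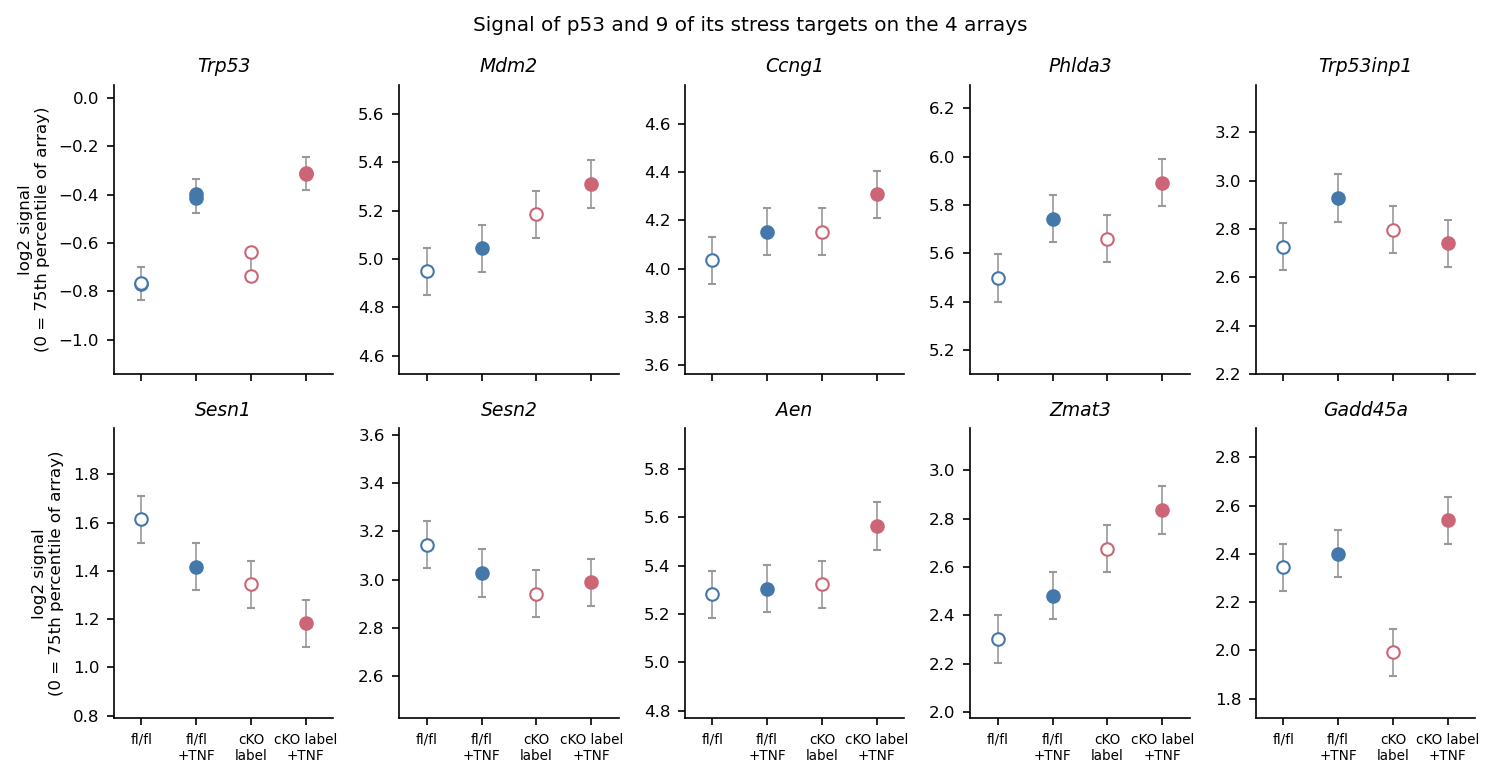
Log2 signal of each of the 10 genes on the 4 arrays, where 0 is the 75th percentile of the array, open points are without TNF, filled points with TNF, each point is a spot and bars are 1 technical SD (divided by the square root of the number of spots). Trp53 was higher on both arrays with TNF, Zmat3 was higher on both arrays labelled cKO, and Gadd45a was lowest on the array labelled cKO without TNF.

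Trp53 itself was higher with TNF in both genotypes. Its signal was 0.587 in Rela fl/fl without TNF, 0.621 on the array labelled cKO without TNF, 0.755 in Rela fl/fl with TNF and 0.804 on the array labelled cKO with TNF. The arrays with TNF did not overlap those without, but the share of all named genes parted in this way was not counted. The difference with TNF was 0.36 in Rela fl/fl and 0.37 on the arrays labelled cKO, both past the limit, while the genotype differences of 0.08 and 0.09 were within it. The probe was printed in 2 spots for each array, and the spots ranged from 0.586 to 0.588, 0.6 to 0.642, 0.75 to 0.759 and 0.803 to 0.806 in the order given. The spot ranges of the 4 arrays thus did not overlap. Of the neighbours in the order of levels, the middle pair, the array labelled cKO without TNF and Rela fl/fl with TNF, differed past the limit. Across the alternative ways of scaling and filtering, the Trp53 difference was 0.33 to 0.39 in Rela fl/fl and 0.26 to 0.42 on the arrays labelled cKO, and the lowest values there fell short of the limit with no scaling and in the authors' own values. Of the 8 chondrocyte markers 3 were lower and 0 higher past the limit with TNF in Rela fl/fl, and 0 lower and 1 higher on the arrays labelled cKO. Of the macrophage and leukocyte markers, Cd14 was higher with TNF by 0.54 in Rela fl/fl and 0.46 on the arrays labelled cKO, with no spot in a patch. In the same order Csf1r differed by -0.10 and 0.08, Lyz2 by -1.42 and -0.25 and Adgre1 by -0.10 and -3.47. Lyz2 and Adgre1 each had a spot in a patch. Of the 5 fibroblast markers 1 was higher and 1 lower past the limit in Rela fl/fl, and 2 higher and 0 lower on the arrays labelled cKO. The part of these markers in the Trp53 difference was not tested.

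Mdm2, the ligase that removes p53 and is itself a p53 target, followed another order. Its signal was 30.9 in Rela fl/fl and 36.4 on the array labelled cKO without TNF, and 33 and 39.7 with TNF. Both arrays labelled cKO were thus above both Rela fl/fl arrays, and the share of all named genes in such an order was not counted. The genotype differences of 0.24 and 0.27 lay just inside the limit. Without TNF the difference was 0.28 and past the limit with no scaling, and 0.13 with normexp background, and with TNF it was 0.17 after quantile normalization. The TNF differences were 0.10 and 0.12, of which the latter was -0.02 after quantile normalization. No neighbours in the order differed past the limit. The Mdm2 spot of the Rela fl/fl array without TNF lay in one of the patches of disturbed spots on that array, so with patches left out the gene has no value there, and the patch's part in the differences was not tested.

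Zmat3, an RNA-binding zinc finger protein and p53 target that acts on splicing, was higher on both arrays labelled cKO. Its signal was 4.93 in Rela fl/fl and 6.39 on the array labelled cKO without TNF, and 5.58 and 7.14 with TNF. The 2 genotypes did not overlap, but the share of all named genes parted in this way was not counted. The genotype difference was 0.37 without TNF and 0.36 with TNF, both past the limit, and it stayed between 0.35 and 0.42 and between 0.29 and 0.36 under all alternatives. The TNF differences were smaller, at 0.18 and 0.16. Cell type markers moved with the label too. Of 3 osteoblast markers 2 were on the array, with a summed signal of 4.23 and 3.55 in Rela fl/fl and of 9.24 and 6.94 on the arrays labelled cKO, nearly all of it from Ibsp (4.16 and 3.49 against 9.14 and 6.85), since Runx2 read 0.0612 to 0.099 and was not well above background on 1 array. The 5 fibroblast markers summed to 804 and 827 in Rela fl/fl and to 709 and 724 on the arrays labelled cKO, with 2 lower past the limit without TNF and 1 with TNF, and the chondrocyte markers were lower there as given above. Their part in the Zmat3 difference was not tested.

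Gadd45a, a growth arrest protein induced by DNA damage that binds PCNA and activates stress kinases, had the largest range of the 10 genes, 0.55 log2 units. Its signal was 5.08 in Rela fl/fl without TNF, 3.98 on the array labelled cKO without TNF, 5.28 in Rela fl/fl with TNF and 5.81 on the array labelled cKO with TNF. The array labelled cKO without TNF stood below the other 3. The cell type markers did not share one order. On that array the fibroblast marker Thy1 read 0.852 against 1.32 to 2.56 on the other 3, and Matn1 24.9 against 32.3 to 89.9. Both were lowest there, as were Col2a1, Col9a1, Col11a1, the fibroblast markers Col3a1 and Dcn, Csf1r and the endothelial marker Kdr. Acan, Comp, Hapln1, Sox9, Col1a2 and Lyz2 were lowest on the array labelled cKO with TNF instead. The fibroblast marker Col1a1 was highest on the array labelled cKO without TNF, at 167 against 161 to 163. Ibsp, Runx2, Adgre1 and the endothelial marker Pecam1 were highest there too. Adgre1, its spot there in a disturbed patch, read 0.577 against 0.052 to 0.0788. The part of these markers in the Gadd45a values was not tested. The TNF difference was 0.05 in Rela fl/fl and 0.55, or 1.46-fold, on the arrays labelled cKO, and the latter was past the limit. The difference between the 2 TNF changes was 0.49, past its own limit of 0.39, and Gadd45a was the only one of the 10 genes past it, against 14.1% of named genes; with no scaling 0 were past it. Without TNF the genotype difference was -0.35 and past the limit, and with TNF it was 0.14 and within it; under the alternatives these were -0.35 to -0.28 and 0.07 to 0.16. The 3 genes whose profile over the 4 arrays was nearest to that of Gadd45a were Prodh, Cpt1b and Nxnl1, at Euclidean distances of 0.079, 0.084 and 0.085 log2 units after centring, over 13343 genes. With 4 arrays many genes lie close to any profile, and the Prodh and Cpt1b spots each lay in a disturbed patch on 1 array.

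Ccng1, or cyclin G1, takes part in the feedback that restores Mdm2 activity. Its signal was 16.4 in Rela fl/fl and 17.8 on the array labelled cKO without TNF, and 17.8 and 19.8 with TNF. The differences with TNF were 0.12 and 0.16, and those with the genotype label 0.11 and 0.15, all within the limit. Its window held the closest match to the p53 element among the 8 genes, shown above. Phlda3, a membrane-binding protein that restrains the survival kinase Akt, had a signal of 45.2 and 50.6 without TNF and of 53.6 and 59.4 with TNF, Rela fl/fl first. The TNF differences of 0.25 and 0.23 were just inside the limit, and the latter was 0.05 after quantile normalization. Phlda3 did not overlap between the arrays with TNF and those without, and the share of all named genes parted in this way was not counted. No neighbours in the order of either gene differed past the limit.

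Aen, an exonuclease that takes part in p53-driven cell death, was highest on the array labelled cKO with TNF. Its signal was 38.9, 40 and 39.5 on the other 3 arrays, in the order Rela fl/fl without TNF, array labelled cKO without TNF and Rela fl/fl with TNF, and 47.3 on the array labelled cKO with TNF. A second probe gave 35.2, 34.9, 34.1 and 42.2 in the same order, so that array was the highest by both probes, with a gap to the next of 0.24 by the first probe, inside the limit. The TNF difference on the arrays labelled cKO was 0.24 by the first probe and 0.27 by the second, inside the limit for both (by the first probe 0.30 and past it with normexp background, and 0.10 after quantile normalization), while in Rela fl/fl it was 0.02 and -0.05, and its sign changed under quantile normalization, in the authors' values and with the mean over probes. The genotype difference with TNF was 0.26 and inside the limit by the first probe, and 0.31 and past it by the second, so that call depends on the probe. By the first probe it was 0.31 with normexp background and 0.19 after quantile normalization.

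Trp53inp1, which helps to steer p53 towards cell death targets, gave no order that both of its probes shared. Its brighter probe read 6.62 in Rela fl/fl and 6.95 on the array labelled cKO without TNF, and 7.61 and 6.68 with TNF. The dimmer probe read 0.438 and 0.433 without TNF, and 0.418 and 0.452 with TNF. The brighter was highest in Rela fl/fl with TNF, where the dimmer was lowest. No difference of either probe was past the limit.

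The sestrins Sesn1 and Sesn2, which restrain the growth kinase complex mTORC1 under stress, were highest in Rela fl/fl without TNF. The signal of Sesn1 was 3.06 in Rela fl/fl and 2.54 on the array labelled cKO without TNF, and 2.67 and 2.27 with TNF. It was the only one of the 10 genes that was lower in all 4 comparisons, by 0.20 and 0.16 with TNF and by 0.27 and 0.23 with the genotype label, each inside the limit. These 4 differences stayed below 0 under all alternatives, from -0.31 to -0.11, and the lowest of these were past the limit. The signal of Sesn2 was 8.85 and 7.69 without TNF and 8.16 and 7.94 with TNF, Rela fl/fl first. All 4 differences of Sesn2 were within the limit, and the sign of its TNF difference on the arrays labelled cKO, 0.05, turned under quantile normalization, with no scaling, in the authors' values and relative to the median of named genes. The matching letters in the Sesn1 window are shown above, and none were found in the window of Sesn2.

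**Figure D2:**
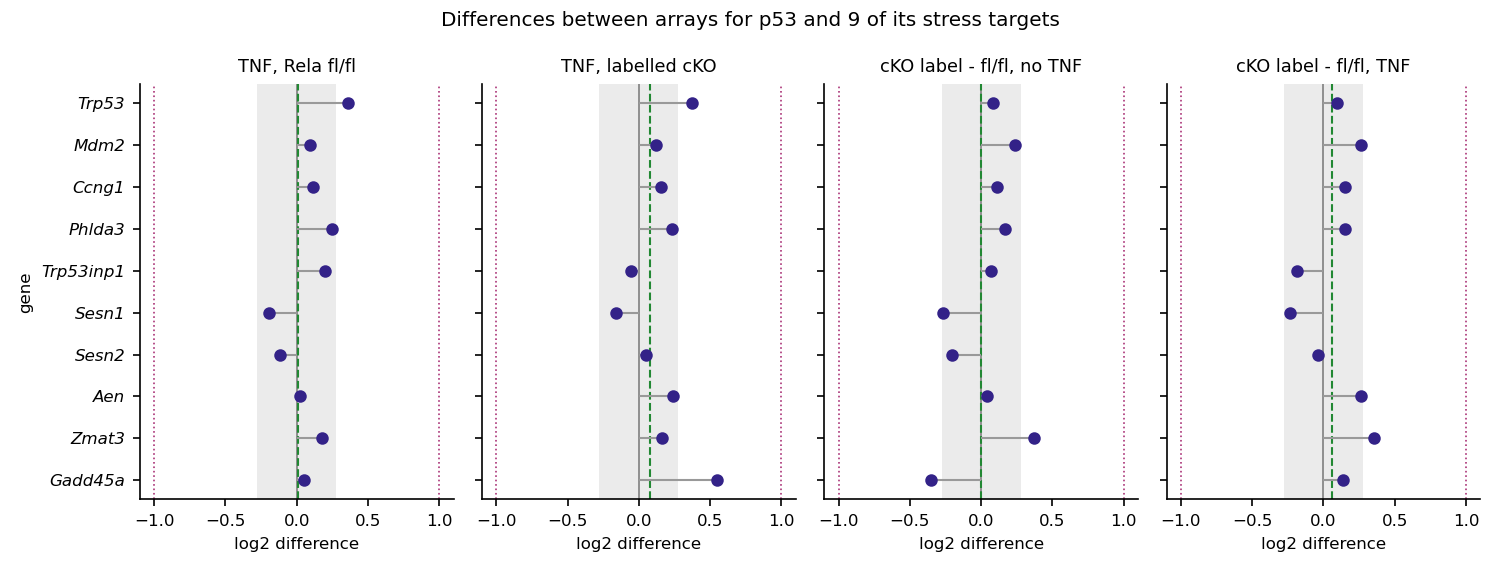
Log2 difference of each of the 10 genes in the 4 comparisons, where the grey band is the limit of 2 technical spreads (0.28 log2 units) either way, the dashed line the median of all named genes and the dotted lines 2-fold. Trp53 was past it with TNF in both genotypes, Gadd45a on the arrays labelled cKO with TNF and, downwards, with the genotype label without TNF, and Zmat3 with the genotype label on both.

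Counted over the list, with TNF in Rela fl/fl 1 gene (Trp53) was higher past the limit and 0 were lower, against 8.46% and 8.05% of named genes well above background on all 4 arrays. On the arrays labelled cKO 2 genes (Trp53 and Gadd45a) were higher with TNF and 0 lower, against 10.8% and 6.93%. With the genotype label without TNF 1 gene (Zmat3) was higher and 1 (Gadd45a) lower, against 11% and 10.3%, and with TNF 1 (Zmat3) was higher and 0 lower, against 14.5% and 9.25%. Each count is near what those shares give for 10 genes. The median difference of the 10 genes was 0.11 with TNF in Rela fl/fl and 0.16 on the arrays labelled cKO, where the median of all named genes was 0.01 and 0.08. With the genotype label it was 0.08 without TNF and 0.14 with TNF, where that of all named genes was 0.00 and 0.06. The medians depend on the scaling. On the arrays labelled cKO the TNF median of all named genes was -0.03 with no scaling, -0.04 in the authors' values and 0.04 after quantile normalization, where the median of the 10 genes was 0.05, 0.05 and 0.04. For the genotype label with TNF the median of all named genes was -0.01, -0.01 and 0.04 in the same order, and that of the 10 genes was 0.08 each time. Without TNF the median of the 10 genes was 0.05 to 0.12 over the alternatives and that of all named genes -0.01 to 0.05.

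The 2 TNF comparisons share no array, and neither do the 2 genotype comparisons, so the members' signs can be set side by side. With TNF 7 genes were above 0 in both genotypes and 1, Sesn1, was below 0 in both, which is 80% with one sign, against 57% of named genes. With the genotype label 6 were above 0 both times and 2 were below 0 both times, again 80%, against 61.4% of named genes. Some of the TNF signs rest on values near 0 and depend on the processing. After quantile normalization the TNF difference on the arrays labelled cKO was -0.02 for Mdm2 and -0.07 for Sesn2. That of Aen in Rela fl/fl was then -0.04. Trp53 was the only one of the 10 past the limit in both TNF comparisons, and Zmat3 the only one in both genotype comparisons. Among all named genes 383 (2.87%) were higher and 265 (1.98%) lower past the limit in both TNF comparisons, and 682 (5.11%) were higher and 538 (4.03%) lower in both genotype comparisons.

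A shared order was noticed after the values were seen. For 6 of the 10 genes (Trp53, Mdm2, Ccng1, Phlda3, Aen and Zmat3) the lowest signal was in Rela fl/fl without TNF and the highest was on the array labelled cKO with TNF, against 19.5% of named genes. Aen is counted by its brighter probe, while its second probe was lowest in Rela fl/fl with TNF. The count depends on the processing. It was 4 of 10 after quantile normalization, where the share of named genes was 16.3%, and 5 of 10 in the authors' values, where it was 10.3%. The count was also 5 of 10 with the mean over probes (18.4% of named genes) and relative to the median of named genes (12.3%). With patches left out it was 5 of 9 (20.5%). It stayed at 6 with no scaling (14.3%) and with normexp background (19.2%).

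**Figure D3:**
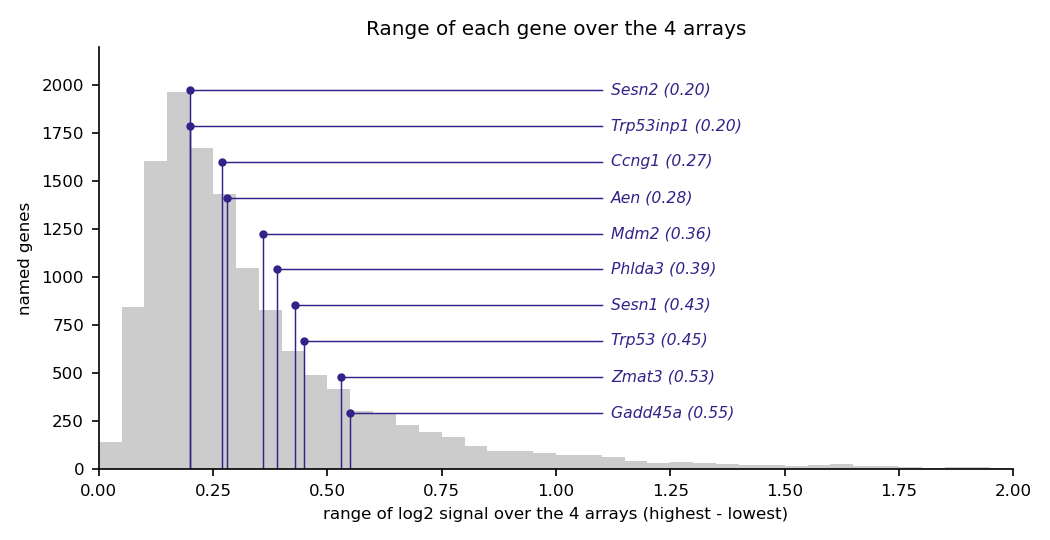
Range of the log2 signal over the 4 arrays, highest minus lowest, for all 13353 named genes well above background on all of them (histogram) and for the 10 genes (marked). The axis ends at 2 log2 units and leaves out 158 genes, and the 10 genes lie between 0.20 and 0.55, 8 of them above the median of 0.26.

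The ranges of the 10 genes over the arrays were modest. They ran from 0.20 log2 units for Trp53inp1 and Sesn2 to 0.53 for Zmat3 and 0.55 for Gadd45a, so the highest array was 1.15 to 1.46 times the lowest. Gadd45a had a wider range than 82.6% of named genes and Zmat3 than 81.8%, followed by Trp53 with 76.2% and Sesn1 with 74.6%. Trp53inp1 and Sesn2 had a wider range than only 34.1% and 34.7%. The median range was 0.38 over the 10 genes and 0.26 over all named genes.

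The rest of the network was read from 3 further lists. For their genes the differences under the alternatives are not given here, so calls close to a limit may depend on the scaling. Of 14 regulators, 13 were well above background on all 4 arrays. With TNF 0 were higher past the limit and 1 lower in Rela fl/fl, and 1 higher and 2 lower on the arrays labelled cKO. With the genotype label 2 were higher and 1 lower without TNF, and 1 higher and 0 lower with TNF. The shares of named genes higher and lower were, in the same order, 8.46% and 8.05%, 10.8% and 6.93%, 11% and 10.3%, and 14.5% and 9.25%. Mdm4, the relative of Mdm2 that blocks p53 directly, had a signal of 0.337 and 0.361 without TNF and of 0.262 and 0.283 with TNF, Rela fl/fl first. It was lower with TNF past the limit in both genotypes, by 0.36 and 0.35, but a second probe read 0.219, 0.228, 0.208 and 0.211, with differences inside the limit. Cdkn2a, whose locus encodes p16 and the Mdm2 inhibitor p19Arf, had a signal of 4.78 and 6.38 without TNF and of 5.36 and 8.2 with TNF. It was higher past the limit with the genotype label, by 0.42 and 0.61, and by 0.36 when the arrays labelled cKO with and without TNF were compared, while TNF in Rela fl/fl gave 0.17. A second, dimmer probe read 0.159 and 0.244 without TNF and 0.263 and 0.358 with TNF, a TNF difference of 0.73 in Rela fl/fl and 0.55 on the arrays labelled cKO, with its spot in a disturbed patch on the untreated Rela fl/fl array. The 2 probes thus differ on TNF in Rela fl/fl. The median of the 13 was 0.16 with TNF in Rela fl/fl and -0.03 on the arrays labelled cKO, and 0.10 and 0.09 with the genotype label.

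Of 20 other targets that act in arrest and repair, all were well above background on all arrays. With TNF 6 were higher past the limit and 1 lower in Rela fl/fl, and 5 and 0 on the arrays labelled cKO. With the genotype label 4 were higher and 0 lower without TNF, and 5 and 1 with TNF. The shares of named genes higher past the limit were 8.46%, 10.8%, 11% and 14.5% in the same order, and those lower 8.05%, 6.93%, 10.3% and 9.25%. Cdkn1a read 24.2 and 23.7 without TNF and 26.3 and 28.7 with TNF. It had 10 spots on each array, which ranged from 23.1 to 24.8, 22.9 to 24.7, 25 to 27.1 and 27.7 to 30.1 in the order Rela fl/fl without TNF, array labelled cKO without TNF, Rela fl/fl with TNF and array labelled cKO with TNF. The spots of the arrays with TNF thus did not overlap those without, while the differences of 0.12 and 0.27 were inside the limit for single spots. A second, dimmer probe of 1 spot read 0.977 and 0.951 without TNF and 1.09 and 1.19 with TNF, and its TNF difference was 0.16 in Rela fl/fl and 0.33, past the limit, on the arrays labelled cKO. The kinase Plk2 and the antiproliferative gene Btg2, chosen after their values were seen, were higher with TNF past the limit in both genotypes, by 0.63 and 0.56 and by 0.50 and 0.40, Rela fl/fl first, although the Btg2 spot of 1 array lay in a disturbed patch. The median of the 20 was 0.13 and 0.11 with TNF, and 0.13 and 0.13 with the genotype label.

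Of 14 other targets in cell death, 13 were well above background on all arrays. With TNF 4 were higher past the limit and 0 lower in Rela fl/fl, and 2 and 0 on the arrays labelled cKO. With the genotype label 6 were higher and 0 lower without TNF, and 4 and 1 with TNF. Against these stand 8.46%, 10.8%, 11% and 14.5% of named genes higher and 8.05%, 6.93%, 10.3% and 9.25% lower. Bax, which opens the mitochondrial outer membrane, read 30.7 and 34.7 without TNF and 34.3 and 37.6 with TNF, and all its differences were inside the limit. Perp, a membrane protein of desmosomes that is also a p53 target, was the only gene of the 3 lists past 2-fold in any comparison. Its signal was 4.17 and 7.63 without TNF and 4.12 and 8.49 with TNF, higher with the genotype label by 0.87 and 1.04. The latter was only just past 2-fold, a log2 difference of 1. Fas, the death receptor, was chosen after its values were seen: it read 2.28 and 2.21 without TNF and 3.71 and 2.1 with TNF, so that its signal was high in Rela fl/fl with TNF alone. The median of the 13 was 0.19 and 0.15 with TNF, and 0.26 and 0.10 with the genotype label.

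**Figure D4:**
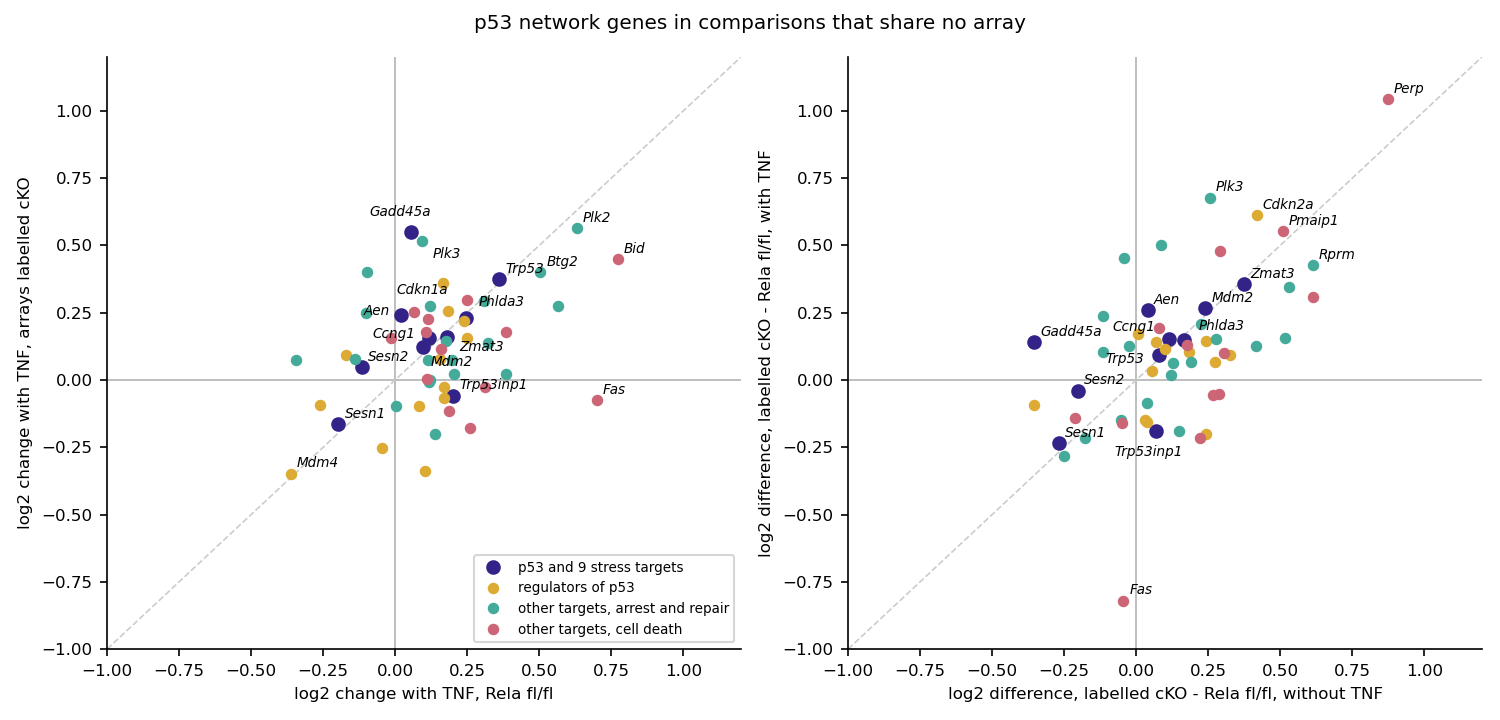
Log2 differences of the 10 genes (large points) and of the genes of the 3 other p53 lists, 1 point for each gene, with TNF in Rela fl/fl against TNF on the arrays labelled cKO (left), and with the genotype label without TNF against the same with TNF (right); the dashed line marks equal differences. Among the 10 genes, Trp53 lay past 0.28 log2 units on both axes at the left and Zmat3 at the right. Genes of the other lists did so too, such as Plk2, Btg2 and, downwards, Mdm4 at the left. Cdkn2a and Pmaip1 did so at the right, where Perp was farthest out.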

How the data were processed

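Total RNA of each of the 4 cultures was labelled with Cy3 and hybridised to a one-colour Agilent mouse array. Per the labels the authors extracted the deposited intensity values with Agilent Feature Extraction 10.10.1.1. The deposited processed signal is a background-subtracted intensity for each of 62976 spots. Of the 59305 transcript spots 51.9% to 58.8% were well above background. The series table, which holds the same intensity values scaled by the authors, was an alternative. The array files name the build mm9, of which no coordinate is used.

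Each log2 intensity was set relative to the 75th percentile of all transcript spots on that array. Outlier spots were left out, repeated spots were averaged, and a gene was read from its brightest probe (both probes are given for the 10 genes). Symbols came from RefSeq, for 20435 of 20809 mRNA accessions. Where 1 array of a comparison was not well above background, its value was raised to the lowest such signal. The technical spread is the pooled SD over repeated probes. Alternatives were no scaling, quantile normalization and normexp background with an offset of 50 (limma 3.58.1 in R 4.3.3), the authors' values, other filters, the mean over probes, and leaving out disturbed patches of spots. Scripts ran in Python 3.11.15 and were tested on simulated data. The genes always named were the 10 of the list, Rela, Cdkn1a, Bax, Mdm4, Cdkn2a, any other gene of the 3 network lists past 2-fold, and the 3 nearest in profile to the one of widest range. The 10 genes and all lists were chosen with earlier results of these data known.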

Additional observations from a re-analysis of the deposited data

Results flagged for a closer look

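Gadd45a was the only one of the 10 genes whose genotype difference pointed opposite ways past 1 technical spread. It was -0.35 log2 units without TNF (3.98 on the array labelled cKO against 5.08 in Rela fl/fl) and 0.14 with TNF (5.81 against 5.28). The second value was barely past 1 spread (0.138). It lay inside it with no scaling (0.07), after quantile normalization (0.09), in the authors' values (0.08) and relative to the median of named genes (0.08), still above 0. The difference between these is the same quantity as the difference of the TNF changes, 0.49, which was past its technical limit of 0.39 but not with no scaling. It rests on 1 array for each group and was not tested between cultures.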

How the results depend on the processing

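No paired analysis was possible because the groups share fewer than 2 replicate numbers, each being 1 array, and no result comes from a test. Of 356 differences of the 10 genes under the alternatives, 353 stayed within 1 technical spread of the value given, 8 changed sign, and 0 changed sign from a value past the limit. Those that moved further were the TNF difference on the arrays labelled cKO of Mdm2 (-0.02) and Phlda3 (0.05) under quantile normalization and the genotype difference with TNF of Trp53inp1 (-0.04) with the mean over probes. Counts past 2-fold were 0 throughout. With no scaling, 0 genes were past the limit for the difference of the TNF changes, 1 was higher when TNF was added to the group labelled cKO, 2 were higher with the genotype label without TNF and 1 was lower with TNF. In the authors' values 1 was again higher in that comparison and 1 lower with the genotype label with TNF. With normexp background 3 were higher with TNF under the label cKO (Aen joined, at 0.30), 2 were lower with the genotype label without TNF, and with TNF 2 were higher and 1 lower. With the mean over probes 2 were higher with the genotype label with TNF. Relative to the median of named genes, an alternative chosen after seeing the data, 1 was lower there. The cause of these moves was not tested. With patches left out Mdm2 has no value.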
